A study of Mus musculus with 12 samples.

Results

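The alpha chain of the T cell receptor is assembled from 1 of many V segments, and the choice among them was followed here in CD4+ T cells with and without a history of GM-CSF expression. The segments were all genes in the deposited count table whose mouse symbol begins with Trav, apart from Trav11 and Trav11d, which left 111 of the 113 Trav genes in the table and 111 of its 17523 genes. Usage is the share of each segment, in percent, of the summed Trav counts of a library. The RNA came from spleen CD4+ T cells of unimmunised Gr/fr mice on the C57BL/6 background, aged 2 to 3 months in the study's methods for sorted CD4+ cells. In these mice iCre recombinase and BFP are expressed from the Csf2 locus, and a Rosa26 lox-stop-lox eYFP allele permanently marks cells in which iCre has acted. YFP+ thus records past or present Csf2 expression, and both alleles were shared by all groups. The paper also shows YFP- cells that stained for GM-CSF, so YFP- does not exclude expression. Cells were sorted as naïve (CD62L+CD44-) or effector memory (TEM, CD62L-CD44hi) and each of these as YFP- or YFP+, which gave 4 groups with 3 libraries per group. The methods give 3 mice without tying them to libraries, so p-values measure the spread between these libraries.

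An alpha chain gene is made in the thymus by joining a V segment to a J segment (Traj), upstream of the constant region Trac. The first joins tend to use V segments and J segments that lie close to each other, and a cell can go on joining V segments further upstream to J segments further downstream until it is positively selected. In the C57BL/6 locus a stretch of V segments occurs in repeated copies, named with d, with n or without either letter, which are called here D copies, N copies and first copies. The Trav11 segment with Traj18 forms the alpha chain of invariant NKT cells, and Trav14 segments encode the chains known as Vα2.

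The 111 segments lie on chromosome 14 (GRCm38, the assembly of mm10), from Trav1, which starts at 52427967, to Trav21-dv12, which starts at 53876016. Going towards the J segments they form 5 stretches, a distal one of 7 segments, a D block of 34, an N block of 30, a first block of 34 that holds the first copies, and a proximal one of 6. All 111 are V segments in RefSeq, while GENCODE types Trav9n-1, Trav11n, Trav13-3 and Trav8-2 as pseudogenes. Their names give 20 families.

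How far reads can tell the copies apart depends on the sequence of the V exon, which GENCODE models gave for 109 of the segments. Pairs that include the excluded Trav11 and Trav11d are counted here. The V exons of D and N copies were identical in 16 of 29 pairs. First copies differed from their D copy by a median of 7 bases over 33 pairs and from their N copy by a median of 8 bases over 29 pairs. The segments on which the results below turn show both cases, and capitals mark the bases that differ within each set of copies. In the first set, the V exon of Trav14n-1 (chr14:53166887-53167178, plus strand) was identical to that of Trav14d-1 (chr14:52855875-52856166), and Trav14-1 (chr14:53554267-53554558) differed at 12 bases.
Trav14n-1: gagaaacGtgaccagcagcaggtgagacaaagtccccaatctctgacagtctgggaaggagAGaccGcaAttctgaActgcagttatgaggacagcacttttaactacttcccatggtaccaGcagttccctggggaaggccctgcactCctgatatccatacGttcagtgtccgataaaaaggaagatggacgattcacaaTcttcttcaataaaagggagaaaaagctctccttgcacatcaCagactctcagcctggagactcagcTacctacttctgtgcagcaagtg
Trav14-1: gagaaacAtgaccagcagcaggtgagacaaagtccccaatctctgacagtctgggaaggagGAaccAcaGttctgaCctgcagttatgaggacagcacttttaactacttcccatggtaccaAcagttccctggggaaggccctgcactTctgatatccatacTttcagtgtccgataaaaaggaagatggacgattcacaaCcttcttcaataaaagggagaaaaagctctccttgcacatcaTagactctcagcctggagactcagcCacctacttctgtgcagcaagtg

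In the second set, Trav12d-2 (chr14:52916138-52916426, plus strand) and Trav12n-2 (chr14:53227112-53227400) were identical, and Trav12-2 (chr14:53616626-53616914) differed at 11 bases.
Trav12d-2: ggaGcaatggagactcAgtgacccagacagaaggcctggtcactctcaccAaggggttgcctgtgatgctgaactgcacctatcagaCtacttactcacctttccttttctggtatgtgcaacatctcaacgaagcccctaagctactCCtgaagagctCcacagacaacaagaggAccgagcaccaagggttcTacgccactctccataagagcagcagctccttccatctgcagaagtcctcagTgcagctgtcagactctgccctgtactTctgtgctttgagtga
Trav12-2: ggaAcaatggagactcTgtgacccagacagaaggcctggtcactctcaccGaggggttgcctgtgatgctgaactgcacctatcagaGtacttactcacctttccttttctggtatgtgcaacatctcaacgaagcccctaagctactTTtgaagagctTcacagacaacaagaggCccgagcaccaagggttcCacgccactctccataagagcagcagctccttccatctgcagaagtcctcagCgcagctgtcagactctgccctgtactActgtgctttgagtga

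In the last set, Trav11n (chr14:53135388-53135677, plus strand), a pseudogene in GENCODE, differed at 6 bases from Trav11 (chr14:53519569-53519858), whose V exon was identical to that of Trav11d. How reads were split between copies with the same V exon is therefore uncertain. This holds for D and N copies in 16 pairs and for D and first copies in 3 pairs, the latter including Trav11d with Trav11.
Trav11n: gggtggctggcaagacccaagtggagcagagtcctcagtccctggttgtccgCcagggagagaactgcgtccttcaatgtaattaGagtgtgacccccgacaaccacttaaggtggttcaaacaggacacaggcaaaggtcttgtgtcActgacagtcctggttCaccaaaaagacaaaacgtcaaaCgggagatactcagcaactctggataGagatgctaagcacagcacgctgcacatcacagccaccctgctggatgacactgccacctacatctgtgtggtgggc
Trav11: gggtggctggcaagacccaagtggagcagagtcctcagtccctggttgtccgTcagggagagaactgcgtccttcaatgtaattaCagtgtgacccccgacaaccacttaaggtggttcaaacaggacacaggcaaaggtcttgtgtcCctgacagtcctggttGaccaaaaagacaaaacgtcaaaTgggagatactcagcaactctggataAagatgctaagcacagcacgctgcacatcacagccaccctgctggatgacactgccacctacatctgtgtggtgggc

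The libraries held 40974124 to 57822269 reads on genes, of which 21890 to 35392 fell on the 111 segments. All 111 segments had reads in every library. Mean shares ran from 0.0226% to 2.79% with a median of 0.737%. The 45 segments with a mean share of at least 1% held 70.0% of the Trav counts. The 6 most used segments were Trav4d-4, Trav14n-1, Trav3d-3, Trav7d-2, Trav3n-3 and Trav6d-7, with mean shares of 2.79%, 2.51%, 2.47%, 2.29%, 2.28% and 2.21%, and all lie in the D or N block. The evenness of usage, given as the number of equally used segments with the same Shannon entropy, was 83.1 to 83.6 in the naïve libraries and 84.3 to 85.1 in TEM libraries, except the second TEM YFP+ library at 79.1. In that library Trav13-4-dv7 held 1.94%, against at most 0.639% in any other library, and the delta chain gene Trdv1 reached 1421 normalised counts.

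**Figure D1:**
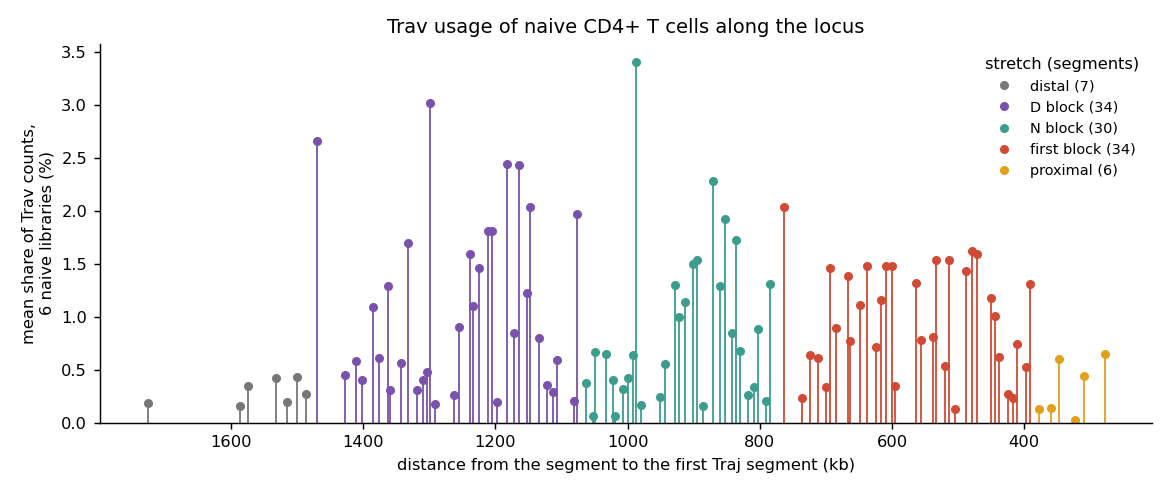
Mean share of the Trav counts (y axis, %) over the 6 naïve libraries for each of the 111 V segments, by the distance in kb from the segment to the first Traj segment (x axis, upstream at the left), coloured by stretch. The tallest lines are Trav14n-1 at 3.40%, in the N block, and Trav14d-1 at 3.02%, in the D block, and the distal and proximal segments are all low.

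Effector memory cells were compared with naïve cells over both YFP fractions. Usage of the Trav14 family fell in TEM, and that of the Trav4 family rose as a share of the Trav counts but not as a level. The Trav14 family took 16.3%, 18.1% and 17.7% of the Trav counts in naïve YFP- and 17.0%, 17.9% and 17.2% in naïve YFP+ libraries. It took 9.32%, 9.51% and 11.6% in TEM YFP- and 9.46%, 11.4% and 12.6% in TEM YFP+ libraries. Every naïve library was above every TEM library, and the log2 change was -0.71 ± 0.08 (SE; limma, adjusted p = 6e-06). The Trav4 family took 8.04% to 8.72% in the naïve libraries and 9.70% to 12.8% in the TEM libraries, with no overlap (log2 change 0.35 ± 0.07, adjusted p = 0.0007). As levels on the deposited scale, the Trav14 family fell by 1.16 on the log2 scale (adjusted p = 2.59e-07) and the Trav4 family changed by -0.10 (adjusted p = 0.45).

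Of the 20 families 5 passed the test, where 59.7% of all features tested did, the others being the Trav11, Trav12 and Trav19 families, which rose in usage. The Trav11 family here holds Trav11n alone, without Trav11 and Trav11d. It took 0.0263% to 0.0924% in naïve, 0.0899% to 0.113% in TEM YFP- and 0.580% to 1.46% in TEM YFP+ libraries. As a level the Trav12 family turned, with a log2 change of -0.30 (adjusted p = 0.025), and the Trav19 family changed by 0.09 (adjusted p = 0.65). Of the 111 segments 8 rose in TEM, or 7.21%, beside 34.2% of all genes tested, and 13 fell, or 11.7%, beside 25.2%. Shares are relative, and the Trav level itself was lower in TEM: summed normalised counts of the 111 segments were 26788 to 39399 in naïve and 22669 to 26227 in TEM libraries. On the deposited scale without division by the Trav sum, 45 segments were called lower in TEM (40.5%, beside 25.4% of all genes) and 1 was called higher, with a median log2 change of -0.41 over the segments and 0.04 over all genes. In bulk RNA fewer cells of a type and less RNA per cell cannot be told apart.

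Among the 13 segments that fell, 8 were members of the Trav14 family, which has 9. V exons are identical in Trav14d-1 and Trav14n-1 and in Trav14d-2 and Trav14n-2, so the 8 are not separate observations. With copies summed, a choice made after seeing the data, the Trav14-1, Trav14-2 and Trav14-3 sets were called lower. Their log2 changes were -1.07, -0.61 and -0.37. Trav14n-1 took 3.14%, 3.64% and 3.66% in naïve YFP-, 3.11%, 3.51% and 3.35% in naïve YFP+, 1.40%, 1.39% and 2.22% in TEM YFP- and 1.35%, 1.58% and 1.79% in TEM YFP+ libraries. It was the most used segment of all 6 naïve libraries and of no TEM library, and its mean fell from 3.40% ± 0.24 to 1.62% ± 0.34 (SD, n = 6 each; log2 change -1.09 ± 0.12, adjusted p = 8e-06). Its identical copy Trav14d-1 fell alike, from 3.02% ± 0.30 to 1.27% ± 0.21, by 1.26 ± 0.12 on the log2 scale (adjusted p = 1e-06).

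The separable first copy Trav14-1 was 1.36% to 1.63% in naïve libraries and 0.475% to 0.870% in 5 TEM libraries, but 2.03% in the second TEM YFP+ library, above all others. Its log2 change was -0.82 ± 0.23 (adjusted p = 0.0081). Trav14d-2 was 1.60% to 1.94% in naïve and 0.804% to 1.63% in TEM libraries, the third TEM YFP+ library lying at the naïve level, and fell by 0.66 ± 0.16 (adjusted p = 0.0028). All 4 of these decreases kept their direction without the division by the Trav sum.

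The named segment with the largest decrease was Trav15-1-dv6-1, which is also used by delta chains. It held 0.325%, 0.398% and 0.388% in naïve YFP- and 0.217%, 0.452% and 0.284% in naïve YFP+ libraries. In TEM it held 0.109%, 0.0367% and 0.108% in YFP- and 0.101%, 0.105% and 0.356% in YFP+ libraries. Only the third TEM YFP+ library overlapped the naïve range, and the log2 change was -1.58 ± 0.37 (adjusted p = 0.0027). The lowest of these shares rests on 13 reads (95% Wilson interval 0.0215% to 0.0628%, counting error only). Neither its D nor its N copy was called, and the first copy held 41.3% to 62.3% of the counts of all 3 copies in naïve and 10.7% to 25.7% in TEM libraries. Trav13-5, below the share at which segments were named and picked after its values were seen, also fell, from 0.136% ± 0.054 to 0.0210% ± 0.0142 (log2 change -2.69 ± 0.38, adjusted p = 5.1e-05).

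The 8 segments that rose included Trav4d-4, Trav4n-4 and Trav4-4-dv10 of the Trav4 family. Trav4d-4 was 2.31% to 2.63% in naïve and 2.49% to 4.65% in TEM libraries, and its 4.65% in the first TEM YFP- library was the highest share of any segment in any library. Its log2 change was 0.35 ± 0.11 (adjusted p = 0.020). Trav4-4-dv10 was 1.27% to 1.35% in naïve YFP-, 1.77% to 1.99% in naïve YFP+, 1.61% to 2.01% in TEM YFP- and 1.94% to 3.03% in TEM YFP+ libraries. The naïve YFP+ libraries lay within the TEM range, and the log2 change was 0.41 ± 0.11 (adjusted p = 0.0066). Trav19, a proximal segment, went from 0.442% ± 0.094 to 0.640% ± 0.119 (log2 change 0.54 ± 0.17, adjusted p = 0.015), again with the naïve YFP+ libraries, at 0.496% to 0.525%, above the naïve YFP- libraries.

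Trav5n-4 (log2 change 0.45 ± 0.17, adjusted p = 0.040) and Trav7d-3 (0.35 ± 0.14, adjusted p = 0.048) passed narrowly. Trav5n-4 was 2.16% in the second TEM YFP+ library and at most 1.24% elsewhere. As levels on the deposited scale, 5 of the 8 increases turned, with log2 changes of -0.10 for Trav4d-4, -0.12 for Trav4n-4, -0.15 for Trav12-3, -0.04 for Trav4-4-dv10 and -0.09 for Trav7d-3. Trav5n-4 and Trav19 changed by 0.0040 and 0.09 and were not called, and Trav11n alone was called higher on that scale. Trav11n, which also rose, is described next. The count of 8 increases was 4 without the second naïve YFP-, the third naïve YFP- or the second naïve YFP+ library, and 5 without the first or the third naïve YFP+ library.

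**Figure D2:**
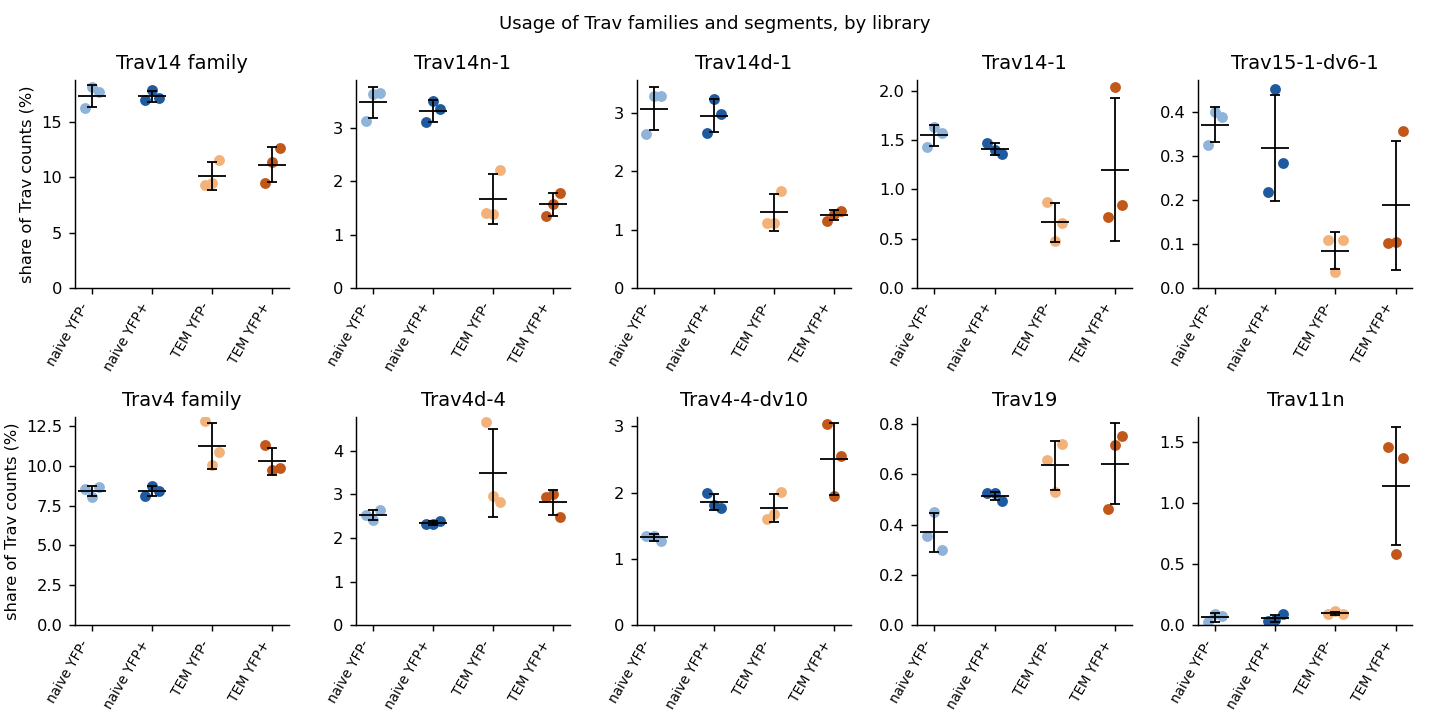
Share of the Trav counts (y axis, %, from 0) of 2 families and 8 segments in each of the 12 libraries, with points for libraries and a bar for the mean ± SD of the 3 libraries of a group. The Trav14 family, Trav14n-1 and Trav14d-1 are higher in all naïve than in all TEM libraries, Trav14-1 is so apart from 1 TEM YFP+ library, and Trav11n is above 0.5% only in TEM YFP+.

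Within TEM, YFP+ cells were compared with YFP- cells, to see whether cells with a history of GM-CSF expression use other V segments. Trav11n was the segment that passed the test, and it rose. Its share was 0.0899%, 0.113% and 0.0913% in TEM YFP- and 1.46%, 0.580% and 1.37% in TEM YFP+ libraries, with 22 to 40 reads in the former and 127 to 362 in the latter. The groups did not overlap, and the 6 naïve libraries lay at 0.0263% to 0.0924%. The log2 change was 3.39 ± 0.51 (limma, adjusted p = 0.0015).

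Trav11n shares all but 6 bases of its V exon with Trav11 and Trav11d, the segments of invariant NKT cells. These 2 genes together took 15.9%, 8.02% and 16.1% of all Trav counts in TEM YFP+ and 0.676% to 1.02% in TEM YFP- libraries. In TEM YFP+ libraries the reads on Trav11n were 6.66% to 7.72% of those on Trav11 and Trav11d, and in the other libraries 4.59% to 24.2%. Whether reads on Trav11n came from the other 2 genes was not tested. Of the 5 genes listed for invariant NKT cells, Zbtb16, Klrb1c and Trav11 rose in TEM YFP+ and Slamf6 and Cd1d1 were not called. The list summed to 11754 to 16708 normalised counts in TEM YFP- and 15267 to 19719 in TEM YFP+ libraries. Within that sum Trav11 had 88.9 to 126 in TEM YFP- and 937 to 2303 in TEM YFP+ libraries. The part of the list in the result was not tested.

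No other segment passed in either direction. The 1 segment called higher of 111 stood beside 2.3% of all genes tested, and the 0 called lower beside 4.68%; before adjustment 9 were higher and 12 lower with p up to 0.05. The count tests on the recovered reads called 1 higher and 1 lower (edgeR) and 3 higher and 6 lower (DESeq2). The share of all genes called by these tools is not given here, so these counts cannot be set against it. Replicate numbers were read as pairing the 2 YFP fractions, which the labels do not state. Over the 111 segments, same-numbered TEM libraries deviated with r of -0.215, -0.0498 and 0.0877. With the replicate number as a block limma called 2 segments higher (beside 5.22% of all genes) and 5 lower (beside 6.76%). These were Trav14-3 with Trav11n, and Trav7-1, Trav6d-4, Trav10n, Trav8n-2 and Trav4-3, named after their values were seen.

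Of the segments without overlap in share between the 2 TEM fractions 5 were higher in YFP+, or 4.50%, and 8 lower, or 7.21%. On the deposited scale 2 segments were higher and 14 lower without overlap, beside 10.6% and 14.3% of all genes. The mean share of Trav7-1, for example, was 0.631% in TEM YFP- and 0.296% in TEM YFP+, and that of Trav4-3 1.33% and 0.784%. With Trav11 and Trav11d counted in the Trav sum, 7 segments were called lower and 1 higher in TEM YFP+ than in TEM YFP-. These 2 genes fill 8.02% to 16.1% of that sum in TEM YFP+ libraries. The share of all genes called under this setting is not given here.

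The same comparison in naïve cells gave a small shift that followed the position of the segments. The first block took 31.1%, 31.8% and 30.3% of the Trav counts in naïve YFP- libraries and 36.2%, 35.8% and 34.5% in naïve YFP+ libraries. The proximal stretch took 1.72%, 1.75% and 1.54% and then 2.38%, 2.29% and 2.23%. Both were higher in every YFP+ library than in any YFP- library. The D block was 37.8%, 37.0% and 38.2% in YFP- and 34.9%, 34.9% and 35.5% in YFP+, and the N block 27.4%, 27.5% and 27.7% against 24.7%, 25.0% and 25.6%. Both were lower in every YFP+ library, where a higher share of the first block leaves less for the other stretches. The distal stretch overlapped, at 1.93% to 2.23% in YFP- and 1.89% to 2.14% in YFP+.

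Between libraries of the same replicate number, read as pairs, the first block was 5.04, 4.01 and 4.24 percentage points higher in YFP+ naïve cells. The SD between libraries of a group was 0.764 points in YFP- and 0.862 points in YFP+. In TEM the corresponding differences were 3.04, -0.31 and 1.66 points, and the first block overlapped between the fractions. The distal stretch, at 2.30%, 3.52% and 3.62% in TEM YFP- and 2.15%, 1.49% and 1.97% in TEM YFP+, was lower in all TEM YFP+ libraries. The TEM libraries of both fractions, at 32.4% to 35.7%, lay above all naïve YFP- libraries in the first block. These sums were set up after the values of single segments were seen and carry no test.

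**Figure D3:**
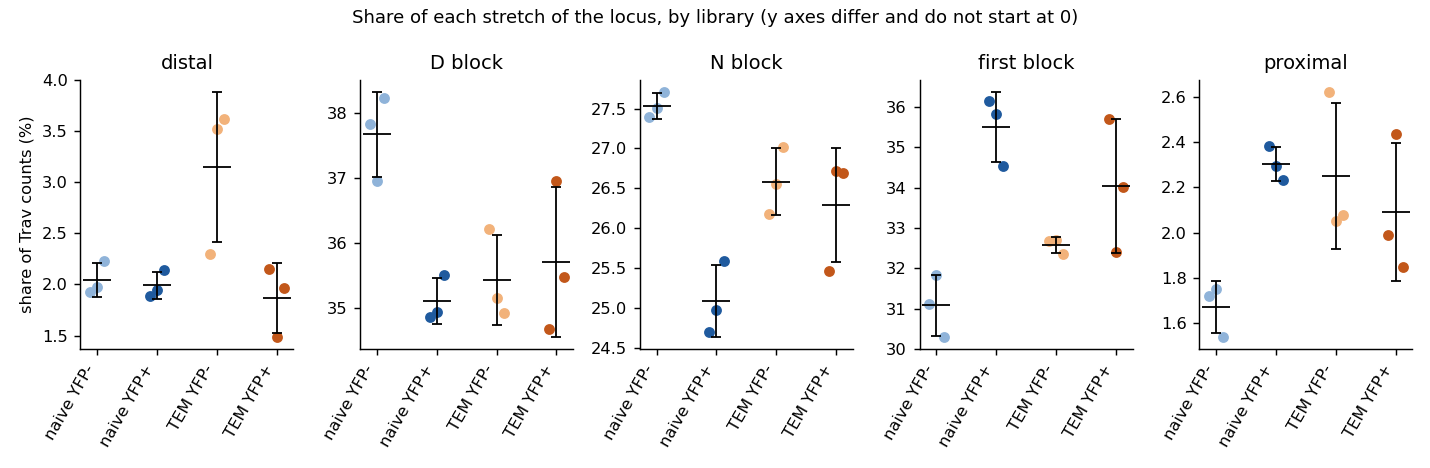
Share of the Trav counts (y axis, %, each panel with its own range that does not start at 0) of the 5 stretches of the locus in each library, with points for libraries and bars for the mean ± SD of the 3 libraries of a group. Naïve YFP+ libraries are above naïve YFP- libraries in the first block and the proximal stretch and below them in the D and N blocks, without overlap.

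By segment, 19 of 111 had shares higher in all YFP+ than in all YFP- naïve libraries and 20 lower. Shares are parts of the same sum, so a rise in some segments lowers others. The higher and lower counts are therefore not separate results, and no share of all genes stands beside them. On the deposited scale, where the Trav level of each library moves all its segments together, 3 segments were higher and 4 lower without overlap. Of all genes 3.16% were higher and 2.21% lower in this way on that scale. Of the 19 higher segments 14 lie in the first block and 3 in the proximal stretch, and of the 20 lower ones 11 lie in the D block, 8 in the N block and 1 in the distal stretch. No first-block or proximal segment was among the lower ones. Over all 111 segments the log2 change in naïve cells had a Spearman rho of -0.486 with the distance to the first Traj segment; neighbouring copies share reads and are not independent. In TEM the same value was -0.17.

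Trav21-dv12, the V segment nearest to the J segments, took 0.509%, 0.526% and 0.571% in naïve YFP- and 0.827%, 0.720% and 0.720% in naïve YFP+ libraries. All YFP+ libraries were above all YFP- libraries (log2 change 0.49 ± 0.25). At the other end, Trav1 took 0.202%, 0.185% and 0.209% in YFP- and 0.129%, 0.202% and 0.168% in YFP+ libraries, which overlapped. Trav12d-2 took 1.87%, 1.80% and 1.97% in YFP- and 1.21%, 1.29% and 1.42% in YFP+ libraries, and its identical copy Trav12n-2 1.50%, 1.50% and 1.58% against 0.981%, 1.05% and 1.20%. Both were lower in all YFP+ libraries, by 0.53 ± 0.15 and 0.50 ± 0.16 on the log2 scale.

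These single changes were small and none passed the test over all genes. Of the 111 segments 0 were called in naïve cells by limma, edgeR or DESeq2, with or without the replicate block, where limma called 0.00642% of all genes. Before adjustment limma had 3 segments higher and 2 lower with p up to 0.05. The range of log2 changes was -0.53 to 0.62.

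**Figure D4:**
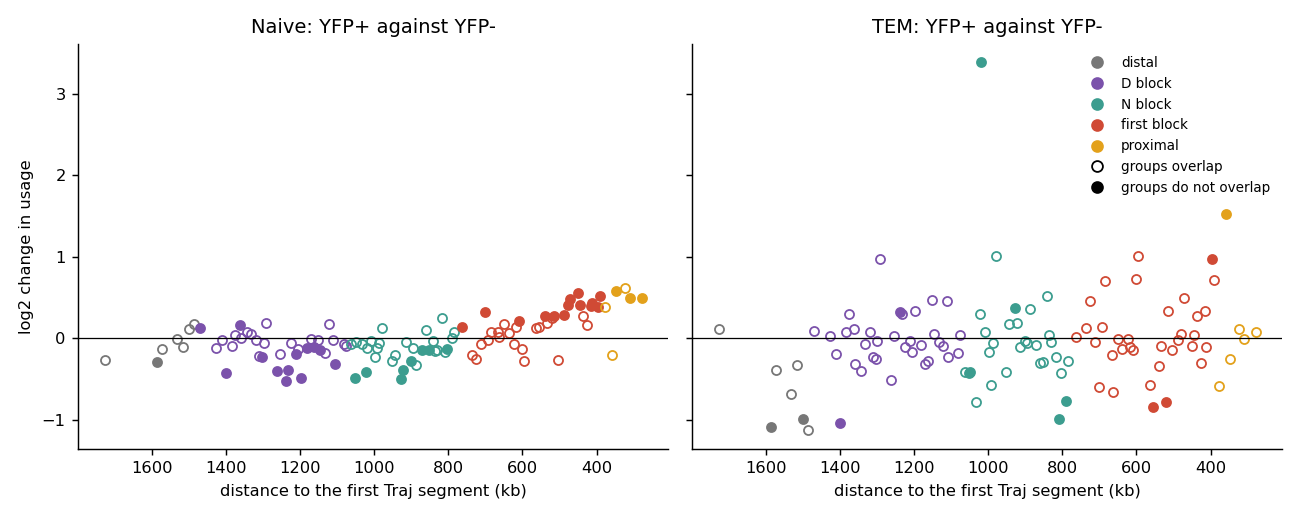
Log2 change in usage between YFP+ and YFP- cells (y axis) of each V segment by its distance in kb to the first Traj segment (x axis, upstream at the left), in naïve cells (left) and TEM (right), coloured by stretch and filled where the 3 libraries of each fraction do not overlap. In naïve cells the filled points lie below 0 over the D and N blocks, with 2 exceptions in the D block, and above 0 near the J segments, and in TEM they are scattered, with Trav11n alone above 3.

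The copies of a segment allow the same comparison within a segment, without the Trav sum. It uses the same counts as the stretch shares and is therefore not a separate observation. Most genes have no such copies, so no share of all genes stands beside the counts here and in TEM. For 33 segments with a first copy and a D or N copy, the first copy's share of the counts over all copies was compared. In naïve cells its mean was higher in YFP+ for 26 and lower for 7, with a median difference of 5.13 percentage points. For 14 of these 33 all YFP+ libraries were above all YFP- libraries, and for 0 all were below. In 10 of the 33 the V exon of the first copy differed from that of a D or N copy by at most 3 bases, so that its share is uncertain, and 1 of the 14, Trav6-6, was among them, with a V exon identical to that of its D copy. In the other 23 the mean was higher for 20 and lower for 3, with a median difference of 6.17 points, and 13 did not overlap. Trav12-2 held 18.2%, 17.1% and 17.6% of its set in naïve YFP- and 30.1%, 25.6% and 25.9% in naïve YFP+ libraries, and Trav5-4 held 34.2%, 29.6% and 29.8% and then 41.0%, 39.9% and 40.4%. Both sets shift towards the first copy in every YFP+ library. Trav14-1, in contrast, was level at 18.5% to 19.9% and 17.2% to 20.3%.

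In TEM the first copy's share was higher in YFP+ without overlap for 4 of the 33 segments and lower for 2. Trav12-2 was 1 of the latter, at 22.9% to 23.1% in TEM YFP- and 11.2% to 19.7% in TEM YFP+, against its direction in naïve cells.

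**Figure D5:**
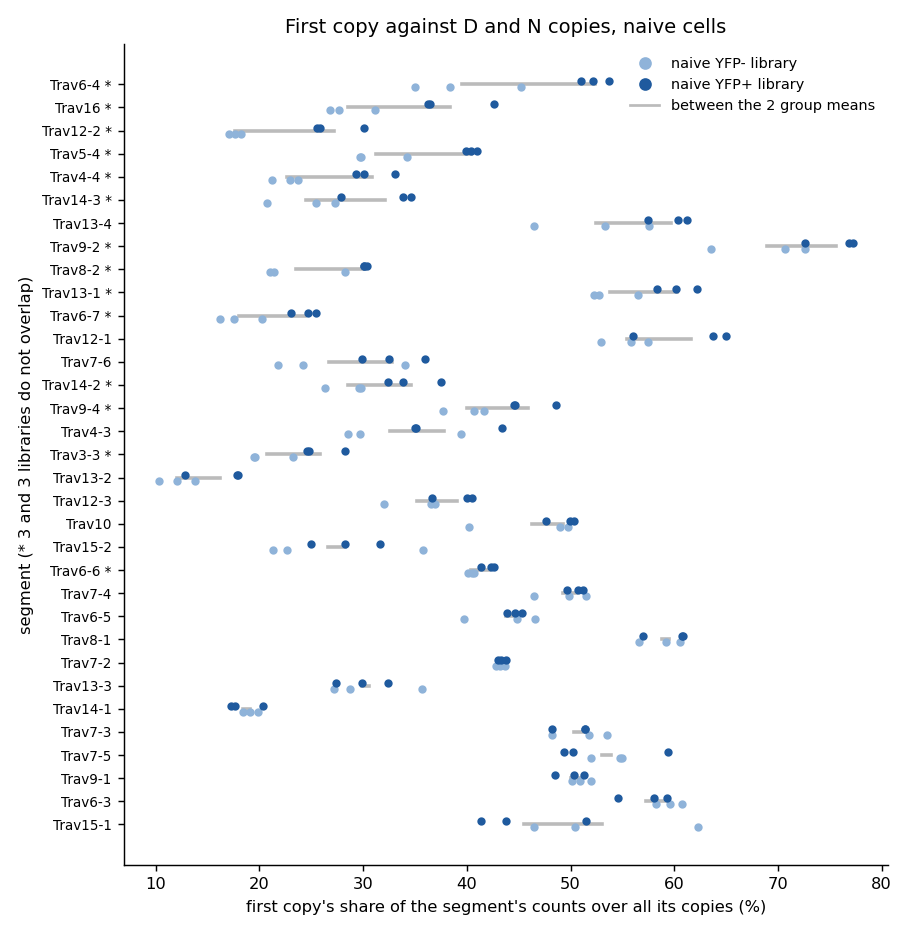
Share of a segment's counts that fell on its first copy (x axis, %) in each naïve YFP- and naïve YFP+ library, for the 33 segments with further copies (y axis, ordered by the difference between the group means, joined by a grey line). Stars mark the 14 segments whose 3 and 3 libraries do not overlap, and in all of these the YFP+ libraries are to the right.

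Whether the effect of YFP differed between TEM and naïve cells was tested by the interaction term. It passed for 3 of 111 segments, or 2.70%, beside 3.57% of all genes. For Trav11n the difference of the log2 changes was 3.50 ± 0.73 (adjusted p = 0.020). For Trav12d-2 and Trav12n-2 it was 0.85 ± 0.21 (adjusted p = 0.046) and 0.88 ± 0.22 (adjusted p = 0.049). The latter segments took 1.60%, 1.64% and 1.46% in TEM YFP- and 1.71%, 2.50% and 1.75% in TEM YFP+ libraries for Trav12d-2, and 1.27%, 1.32% and 1.15% against 1.41%, 2.04% and 1.46% for Trav12n-2. Their direction was thus opposite in the 2 cell types, higher in YFP+ in TEM and lower in YFP+ in naïve cells. Leaving out any 1 library ended the interaction call for Trav12n-2, for Trav12d-2 in 11 of 12 cases, and for Trav11n in 5 of 12 cases. With the copies of a segment summed, the Trav12-2 set was not called (difference 0.56 ± 0.16, adjusted p = 0.097).

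Other parts of the same pathway were read on the deposited scale. The summed share of the upstream J segments was also higher in YFP+ naïve cells, while few single J segments were. The 25 Traj genes with numbers above 30, which lie upstream and so nearer to the V segments, took 24.4%, 24.8% and 23.5% of the Traj counts in naïve YFP- and 34.1%, 27.1% and 28.2% in naïve YFP+ libraries. All YFP+ libraries were above all YFP- libraries, while in TEM the fractions overlapped (22.9% to 30.3% and 27.2% to 33.0%). This sum carries no test, and the first naïve YFP+ library stood apart at 34.1%. By gene, shares in naïve YFP+ were higher without overlap for 2 of the 25 upstream and 1 of the 26 downstream genes, and lower for 0. On the deposited scale, which is not that of these shares, 3.16% of all genes were higher and 2.21% lower in this way. Between the naïve fractions 0 of the 51 Traj genes were called. Of 51 Traj genes 0 rose and 5 fell in TEM against naïve cells, beside 25.4% of all genes that fell, and Traj18 was the 1 that rose in TEM YFP+ (log2 change 1.30, adjusted p = 0.0075).

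Dntt, the terminal transferase that adds bases at V and J ends during joining, had 695, 669 and 771 normalised counts in naïve YFP- and 266, 209 and 286 in naïve YFP+ libraries. All YFP+ libraries were lower (log2 change -1.50 ± 0.46, unadjusted p = 0.0065 and adjusted p = 1.0000 by limma). It fell in TEM YFP+ against TEM YFP-, from 356 ± 127 to 16.4 ± 14.7 normalised counts (SD, n = 3 each; log2 change -4.61, adjusted p = 1.54e-04). Of the 10 recombination genes tested, Xrcc5 and Polm rose and Dntt, Lig4, Xrcc4 and Prkdc fell in TEM against naïve cells. In this comparison 5328 of all 15587 genes tested rose and 3954 fell. The recombinase gene Rag1 had at most 5.74 normalised counts in any library. The constant region Trac changed by -0.21 (adjusted p = 0.12), and Cd3d was the 1 of 4 CD3 chains that fell (log2 change -0.25, adjusted p = 0.040).

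Markers of other T cells moved with some of these groups. The CD8 genes Cd8a and Cd8b1 summed to 1166 to 1321 normalised counts in naïve YFP- and 500 to 608 in naïve YFP+ libraries. Here limma called 0 of 2 (Cd8b1, log2 change -1.22, adjusted p = 0.56). The paper, which used DESeq2, lists Cd8b1 among the few genes that differed between the naïve fractions, lower in YFP+. In TEM the CD8 genes summed to 686 to 1490 in YFP- and 187 to 373 in YFP+ libraries, with both called lower. Cd4 was at 36078 to 67471 normalised counts throughout. Of the gamma delta markers Trdc was the 1 tested, at 459 to 631 normalised counts in naïve and 189 to 358 in TEM libraries, where it fell. The myeloid markers Lyz2, Csf1r, Adgre1, S100a8 and S100a9 summed to 2910 in the second naïve YFP+ library and to 81.8 to 512 in the other naïve libraries, with 0 of 5 called between the naïve fractions, and that library's stretch shares lay within or beside those of the other YFP+ libraries. In TEM the myeloid markers summed to 4578 to 8756 in YFP- and 1518 to 3092 in YFP+ libraries. Of these 5 genes 1 was called lower and 0 higher, with log2 changes from -2.99 to 4.53. The plasmacytoid dendritic cell markers summed to 11285 to 15430 and 8769 to 9366, with 4 of 6 called lower. The 5 conventional dendritic cell markers summed to 7752 to 15584 in TEM YFP- and 456 to 975 in TEM YFP+ libraries, with 4 of 5 called lower. The B cell markers summed to 405 to 496 in TEM YFP- and 321 to 834 in TEM YFP+ libraries, with 1 of 5 called higher. The NK cell markers summed to 453 to 634 and 393 to 466, with 1 of the 2 tested called higher. Between the TEM fractions limma called 359 of all 15587 genes tested higher and 728 lower on this scale. The part of these cells in the V segment results was not tested.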

How the data were processed

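Total RNA of sorted CD4+ T cells was sequenced after TruSeq Stranded Total RNA preparation, and reads were mapped by the authors to mm10 with DRAGEN and counted per gene with Rsubread. The deposited signal values are these gene counts divided by the DESeq2 size factors of the authors. Versions, the annotation, the strand setting and the treatment of reads that match several copies were not given in the sources used here. Whole reads were recovered from the step of each library (100% of values within 0.01 of a whole read). Gene identifiers were matched to RefSeq symbols for 16749 of 17523 genes.

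For usage, segment values were divided by the summed Trav value of the library and multiplied by the mean of that sum, and other genes were left as deposited. Genes with at least 5 normalised counts in at least 3 libraries (15587) were fitted with limma 3.58.1 in R 4.3.3 on log2(value + 1), with 4 group means over the 12 libraries, a variance trend and Benjamini-Hochberg adjustment over all genes, and called at an adjusted p of 0.05 or less. A fold change on this scale understates that of low genes. TEM against naïve was averaged over YFP status. Families were fitted in the same way after summing their segments. Alternatives included edgeR 4.0.16 and DESeq2 1.42.0 on recovered reads. The scripts were tested on simulated counts with known changes.

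The segments and gene lists were chosen with earlier results of these data known. Named segments were the 6 with the largest mean share, for each comparison the 5 largest increases and decreases among called segments with a mean share of at least 0.2%, and those at the ends of the locus. V exons were taken from GENCODE M21 (GRCm38). Same-numbered YFP- and YFP+ libraries deviated together from their group means over all genes tested (r = 0.306, 0.491 and 0.360 in naïve, 0.180, 0.338 and 0.356 in TEM), and numbers were therefore read as pairing the 2 fractions, although over the 111 segments alone r ran from -0.215 to 0.435. With 3 libraries per group, intervals from reads cover counting error only.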

Additional observations from a re-analysis of the deposited data

Results flagged for a closer look

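The effect of YFP status differed between TEM and naïve cells, by the test of the difference itself, for 3 V segments. For Trav11n the log2 change between YFP+ and YFP- cells was 3.50 larger in TEM than in naïve cells, with higher shares in 3 of 3 TEM YFP+ libraries, and the call was lost in 5 of 12 cases when 1 library was left out. For Trav12n-2 and Trav12d-2, whose V exons are identical and which are therefore not separate observations, the differences were 0.88 and 0.85, with YFP+ above YFP- in all libraries of TEM and below in all libraries of naïve cells. These calls were lost in 12 and 11 of 12 cases, and with the copies summed the set was not called.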

How the results depend on the processing

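Of 379 repeats of a named segment's value under another setting or without 1 library, 296 kept direction and call, 74 kept direction without the call and 9 turned; the cause was not tested. The share of all genes called is not given in this section beside the counts under other settings. The scale mattered most for TEM against naïve. With size factors only, 1 segment was higher, 45 lower, 10 families and 1 interaction were called, and Trav4-4-dv10 (-0.0379) and Trav7d-3 (-0.0904) turned. With TMM only the counts were 1, 48, 10 and 1, and Trav5n-4 (-0.0216), Trav4-4-dv10 (-0.0635) and Trav7d-3 (-0.12) turned. Quantile normalisation, which moves the Trav level furthest, gave 0 higher, 107 lower, 17 families and 2 higher in TEM YFP+, and Trav19 (-0.83), Trav5n-4 (-0.64), Trav4-4-dv10 (-0.41) and Trav7d-3 (-0.91) turned. With Trav11 and Trav11d in the sum, 3 segments were higher in TEM, 7 lower in TEM YFP+, 1 interaction and 2 families in TEM YFP+ were called. DESeq2 gave 14 higher in TEM, 3 higher and 6 lower in TEM YFP+ and 2 families there; edgeR gave 1 lower there and 1 interaction. A pseudocount of 5 gave 2 lower in TEM YFP+, one of 0.1 gave 1 interaction, and no variance trend gave 2 lower and 2 families in TEM YFP+ and 1 interaction. A log2 change of 1 or more left 1 higher, 4 lower and 1 family in TEM and 1 interaction.

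The replicate block gave 2 higher and 5 lower in TEM YFP+, and moved no other count of calls by over 1.5 times. With edgeR and the block, chosen after seeing the data, these were 2 and 2, and with DESeq2 and the block 3 and 7, with 13 higher in TEM. Leaving out 1 library at a time gave 4 to 11 higher and 12 to 14 lower in TEM, 1 to 3 higher and 0 to 2 lower in TEM YFP+, 0 in naïve cells, 0 to 1 interactions, 4 to 6 families in TEM and 1 family in TEM YFP+; the interaction of Trav11n lost its call in 5 of 12 cases. Copies summed to 49 segments, also chosen after seeing the data, gave 6 higher and 5 lower in TEM, 1 higher in TEM YFP+, 0 in naïve cells and 1 interaction, against 3 by segment. Depth limits segments at the lowest shares, where a library held 1 read.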
